A study of Petromyzon marinus and Lampetra planeri with 28 samples.

Results

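The dorsal neural tube (DNT) of sea lamprey embryos was compared between Tahara stages T18 and T20, in 5 RNA-seq libraries of the 28 samples of the series. The stages were chosen by their labels, and every locus of the study's assembled transcriptome was taken, 72171 in all, of which 58793 had a count and 25317 were tested. Each library held polyA RNA of DNTs dissected from the heads of Petromyzon marinus embryos and pooled, 30 embryos per sample at T18 (3 libraries) and 35 at T20 (2 libraries). No allele, transgene or treatment is labelled in either group. The study set these stages, with T21, side by side to follow the cranial neural crest (NC) from its premigratory state to delamination. The dissected tissue was not sorted, so it could hold neural tube, NC, overlying ectoderm and neighbouring cells. In such bulk samples fewer cells of a type and less RNA per cell cannot be told apart.

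The NC is a vertebrate cell population that arises where the neural plate meets the epidermis, leaves the closing neural tube by an epithelial to mesenchymal transition and gives rise to peripheral neurons, pigment cells and much of the head skeleton. Wnt, BMP and FGF signals and factors of the Pax, Msx, Zic and Tfap2 families set up its border territory, and FoxD3, Snail and SoxE factors then mark the crest itself. In lamprey, a jawless vertebrate, the neural folds meet as a solid rod that later forms the tube.

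Values are normalised counts, the study's counts of fragments per locus divided by a size factor for each library, and are listed in the order T18 replicates 1 to 3, then T20 replicates 1 and 2. The T18 libraries held 19750785, 29993488 and 91015285 counted fragments and the T20 libraries 15677501 and 13690592. A locus is said to have risen, fallen or been called when its adjusted p was under 0.05 in the quasi-likelihood test of edgeR, with p-values adjusted by Benjamini-Hochberg over every locus tested. Log2 fold changes are T20 over T18. Their standard error (SE) is the absolute log2 fold change divided by the square root of the statistic (F) of that test. The fit included the 3 T21 libraries, because T20 has 2 libraries. They enter the estimate of the spread, the scaling and the filter on low counts, and 25317 loci were tested with them and 23893 without them. Nothing states that replicates came from separate clutches, so the p-values measure the spread between these samples only. In all 4391 loci were called, 17.3% of those tested, of which 2742 rose (10.8%) and 1649 fell (6.51%). Upper quartile normalisation gave 2279 higher and 2571 lower. It shifted the median over tested loci from -0.00 to -0.11 on the log2 scale. In the main scaling the larger group and the larger changes were on the side of the rises. With upper quartile normalisation the larger group was that of the falls. A log2 change over 1 was seen for 1713 of the loci that rose and for 745 that fell, and one over 4 for 234 and 105. Loci that rose had a median of 131 normalised counts at T18 and 381 at T20, and loci that fell had 878 and 448.

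**Figure D1:**
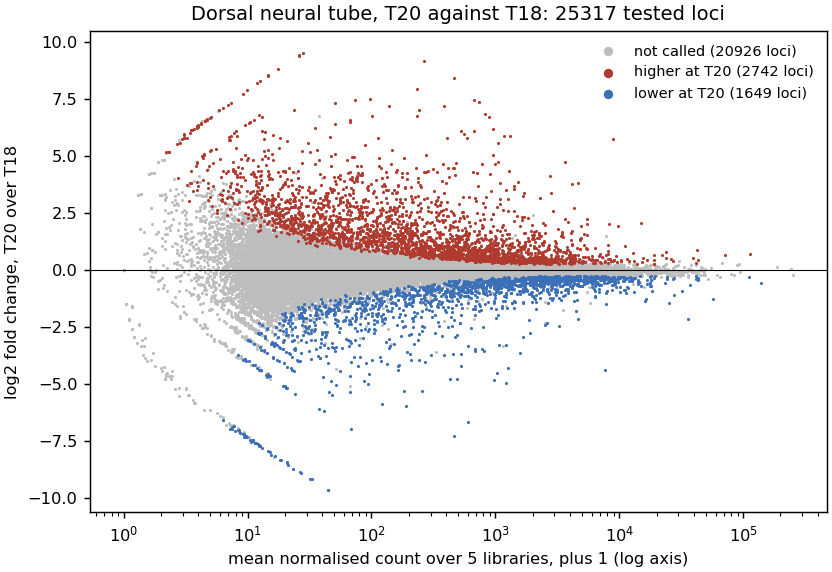
Log2 fold change of T20 over T18 against the mean normalised count over the 5 libraries (log axis), 1 point per tested locus. The 2742 loci that rose (red) reach larger changes than the 1649 that fell (blue), and grey loci were not called.

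The pair of T20 libraries was less alike than any pair of libraries at T18 or T21. Among 14072 loci with a mean of at least 50 normalised counts, 9.98% differed by more than 2-fold between T20 replicates 1 and 2, against 1.74% to 4.34% for the pairs of T18 libraries and 1.76% to 1.81% for those of T21. Both T20 libraries lay above all 3 T18 libraries for 2713 of the 2742 loci that rose and below them for 1647 of the 1649 that fell. The calls were made from these same libraries, so this separation is largely built into the call and gives no separate support. For 12 loci that rose only replicate 1 lay outside the T18 range and for 17 only replicate 2. Over all tested loci, 42.6% had T18 and T20 libraries that did not overlap. T20 replicate 2 was the higher of the pair for 1828 of the loci that rose (66.7%) and for 664 of those that fell (40.3%), so that at most called loci replicate 2 lay further from T18 than replicate 1.

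Gene names were at hand for 4724 of the tested loci, through the study's own lists of changed or clustered loci, and these were called far more often (42.4%, with 29.1% higher and 13.3% lower) than loci without a name (11.6%). Counts for gene lists are therefore read against the named loci, whose median log2 fold change was 0.25. Where a locus carries several names all are given, separated by slashes, and the counts cannot be split between them. Reads with more than 1 place in the genome were counted too, so near-identical loci may share counts.

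Some markers of tissues next to the DNT also differed between the stages, and their part in the results below was not tested. Of 37 tested epidermis and placode loci 23 rose (62.2%) and 2 fell (5.41%), beside 29.1% and 13.3% of named loci. The median log2 fold change was 1.85. The summed level of the list was 78935 to 83417 normalised counts in the T18 libraries, 97773 in T20 replicate 1 and 146258 in T20 replicate 2. Without krt8 (XLOC_033574) it was 70796 to 77741 at T18 and 80516 and 108034 at T20. That locus had 8139, 6212 and 5676 at T18 and 17257 and 38224.5 at T20. Most of the difference left came from the Krt8 locus given next. The abundant CLDN3 (XLOC_061419) went the other way, with 51593, 57597 and 61215.5 at T18 and 43128 and 44506.5 at T20, and was not called. Both loci were named after their values were seen. The epithelial keratin Krt8 (XLOC_028492) had 748, 246 and 254 at T18 and 9105 and 33769 at T20 (log2 fold change 5.73 ± 0.77, adjusted p = 0.00469). Another keratin locus, Krt8 (XLOC_005424), had 5.0, 8.26 and 7.30 at T18 and 34.4 and 322 at T20. Its call was lost without T18 replicate 2 (adjusted p = 0.0568) or T18 replicate 3 (adjusted p = 0.104). agr2 (XLOC_018633), a secretory protein of mucous epithelia, had 54.9, 32.2 and 28.9 at T18 and 287 and 769 at T20. These loci were higher in T20 replicate 2 than in replicate 1, as were 20 of the 23 that rose. For TP63, the regulator of epidermal fate, the abundant locus XLOC_042779 had 9555, 8313 and 8804 at T18 and 7988 and 5649 at T20 and was not called (adjusted p = 0.0505), except without T20 replicate 1 (1.62e-05), while the low Tp63 locus XLOC_036782 rose, with 68.7, 64.4 and 112 at T18 and 244 and 367 at T20. The TP63 loci were named after their values were seen. One of the falls, SIX4 (XLOC_042136), a placode factor, had 562, 499.7 and 567 at T18 and 275 and 303 at T20, but a second SIX4 locus (XLOC_029664, named after its values were seen) rose, with 41.2, 43.8 and 56.5 at T18 and 279.5 and 339 at T20.

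Notochord and endoderm markers summed to 20359 to 22177 in the T18 libraries and to 12785 and 10946 in those of T20, a lower sum that came from 1 locus. Of 13 loci 4 fell (30.8%) and 2 rose (15.4%), beside 13.3% lower and 29.1% higher among named loci. The median was -1.52. The count of falls was 2 without T18 replicate 3, and it was not stable without T20 replicate 1. The locus behind the lower sum was Cdx1/zgc110179 (XLOC_023058), a caudal-type homeobox gene active in the posterior body and gut, which had 11735, 12554 and 13068 at T18 and 759 and 425 at T20. Without it the sum was 7560 to 10442 at T18 and 12025 and 10522 at T20, where COL2A1 loci made up most of it. The secreted signal of notochord and floor plate shha (XLOC_006470) had 192, 159 and 292 at T18 and 31.4 and 7.45 at T20 and fell by 3.42 on the log2 scale. Foxa2 (XLOC_026423), a floor plate and endoderm factor named after its values were seen, fell, with 215, 283 and 436 at T18 and 117 and 26.1 at T20, and lost its call without T18 replicate 3 (adjusted p = 0.0616). The organiser gene gsc (XLOC_034561) had 25, 86.7 and 170.3 at T18 and 7.47 and 16.8 at T20, and without T18 replicate 3, T20 replicate 1 or T20 replicate 2 its adjusted p was 0.0836, 0.162 and 0.1. Another FOXA2 locus (XLOC_029647) had 317, 509.6 and 733 at T18 and 82.2 and 0 at T20 and was not called (adjusted p = 0.135, and 0.0165 without T20 replicate 1). The 2 loci that rose were of type II collagen, which is also made outside the notochord. COL2A1 (XLOC_005107) had 4104, 2602 and 2053 at T18 and 7639.7 and 8025 at T20, a call lost without either T20 library (adjusted p = 0.0653 and 0.0948), and Col2a1/myrip (XLOC_018551) had 226, 235 and 187 at T18 and 362 and 585 at T20. A further COL2A1 locus (XLOC_028575, named after its values were seen) had 513, 293 and 393 at T18 and 256 and 39.1 at T20 and was called, as lower, only without T20 replicate 1 (4.54e-06).

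Mesoderm and muscle markers changed in both directions, with 10 of 38 loci higher (26.3%) and 8 lower (21.1%), beside 29.1% and 13.3% of named loci. Their sums were 42907 to 46046 at T18 and 40352 and 42434 at T20. The paraxial mesoderm factor tbx6 (XLOC_036010) had 644, 879 and 1437 at T18 and 17.9 and 0 at T20 and fell by 6.66 on the log2 scale (SE 0.70, adjusted p = 3.26e-04). FOXC1 (XLOC_040843), of somites and head mesenchyme, had 4601, 4560.5 and 5299 at T18 and 1233 and 532 at T20, and Meox2 (XLOC_063579), of somites, had 757, 683 and 593 at T18 and 184 and 112 at T20. Another meox2 locus (XLOC_006930, named after its values were seen) rose, with 41.2, 24 and 26.2 at T18 and 152 and 54 at T20, and lost its call without T18 replicate 2 (0.0771), T18 replicate 3 (0.0674) or T20 replicate 1 (0.299). On the other side stood unc45b (XLOC_011664), a myosin chaperone, with 1.25, 7.43 and 17.6 at T18 and 172 and 214 at T20, tbx20 (XLOC_010616), of heart and cranial motor neurons, with 3.75, 10.7 and 10.8 at T18 and 139 and 181 at T20, and the acetylcholine receptor subunit CHRNA1 (XLOC_005439) with 58.7, 52.9 and 46 at T18 and 617 and 346 at T20. Blood, endothelial and immune markers were few and low, summing to 1759 to 2095 at T18 and 3347 and 2966 at T20. Of 12 loci 3 rose (25%) and 1 fell (8.33%), both below the 29.1% and 13.3% of named loci. The erythroid factor gata1-a (XLOC_012712) had 787, 546 and 559 at T18 and 1729 and 1274 at T20. The endothelial receptor KDR (XLOC_023245, named after its values were seen) had 92.4, 109 and 242 at T18 and 88.2 and 31.7 at T20 and was called, as lower, only without T20 replicate 1 (adjusted p = 0.0242). MARCO/NIPA2 (XLOC_023200), whose names are those of a macrophage receptor and a magnesium transporter, had 638, 517 and 520.4 at T18 and 776 and 814 at T20, and lost its call without T18 replicate 2 or 3 (adjusted p = 0.0804 and 0.0671). The remaining rise was LYVE1 (XLOC_016653), of lymphatic endothelium, with 1.25, 0.826 and 0.811 at T18 and 16.4 and 65.2 at T20, and the fall was Stab2 (XLOC_050041), a scavenger receptor, with 61.2, 61.9 and 46.2 at T18 and 26.9 and 9.31 at T20. Both were named after their values were seen, and Stab2 lost its call without any T18 or T21 library (0.0607 to 0.119) or without T20 replicate 2 (0.24).

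Immediate early genes, which cells switch on within minutes of a signal, handling or injury, rose together. This list was put together after the values were seen, so its counts give no separate support. Of its 14 tested loci 13 rose and none fell, beside 29.1% higher and 13.3% lower among named loci. The other, IER5L/QccE-15063/Transmembrane (XLOC_008090), had 16.2, 19 and 22.2 at T18 and 23.9 and 35.4 at T20. In all 14 both T20 libraries lay above the 3 of T18. Over all tested loci, 42.6% had T18 and T20 libraries that did not overlap, in either direction. The sum of the list was 2238 to 3032 in the T18 libraries, 17073 and 12190 in T20 replicates 1 and 2 and 7658 to 10451 at T21. Fos (XLOC_026382), at scaf_00025, 5601218 to 5612583, minus strand, of the sea lamprey germline assembly, had 0, 1.65 and 1.08 at T18 and 840.1 and 475 at T20, the largest rise of any named locus by the rule used here (9.16 ± 0.64). A second locus, FOS (XLOC_034230), had 18.7, 52 and 9.73 at T18 and 2667 and 607 at T20, and the partner family member FOSL1 (XLOC_011513) had 21.2, 131 and 15.1 at T18 and 3519 and 1514 at T20. egr1-b (XLOC_020533), a zinc finger gene of the same early response, had 6.24, 70.2 and 9.19 at T18 and 1739.9 and 1141 at T20. For FOS (XLOC_034230), FOSL1 and egr1-b T18 replicate 2 was the highest of the T18 libraries, and FOSL1 lost its call without T20 replicate 1 (adjusted p = 0.0611). Of the rest, 6 loci rose by 1.00 (KLF2, XLOC_024868) to 2.07 (FOS, XLOC_038105) on the log2 scale and NR4A1 (XLOC_006685) by 4.03. Fosl1 (XLOC_011770), Fosl2 (XLOC_029591) and JUN (XLOC_039464) lost their calls without T20 replicate 1 (adjusted p = 0.0883, 0.258 and 0.318). Fosl1 also lost it without T18 replicate 3 or T20 replicate 2 (0.0516 and 0.0569), Fosl2 without T20 replicate 2 (0.0612) and JUN without T18 replicate 1 or 3 (0.0518 and 0.0573). The part of handling in these values was not tested.

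**Figure D2:**
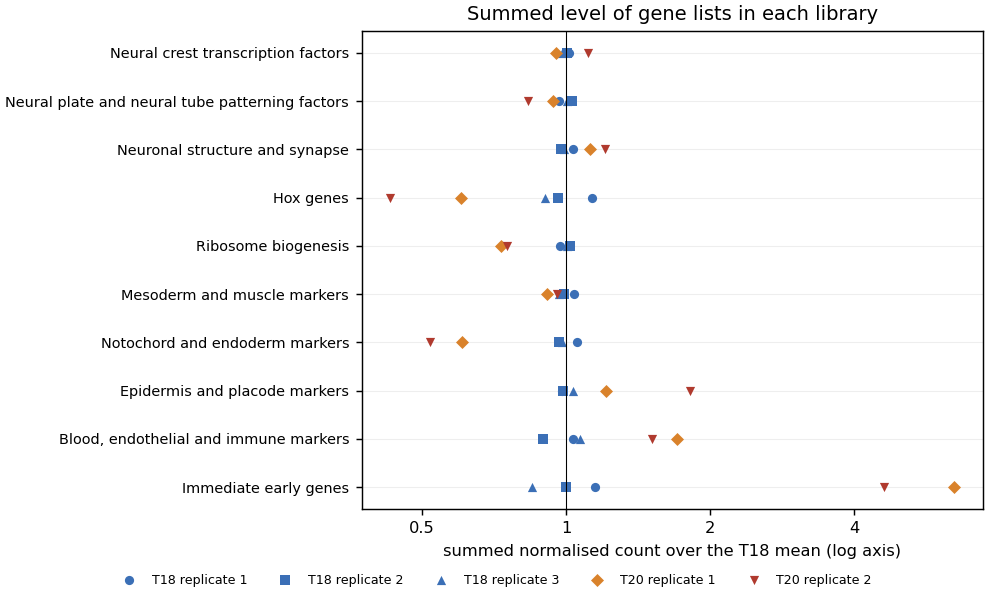
Summed normalised count of the tested loci of 10 gene lists in each library, divided by the mean of the 3 T18 libraries (log axis). Blue symbols are T18, orange diamonds T20 replicate 1 and red triangles T20 replicate 2. Immediate early genes, epidermis and placode markers and blood, endothelial and immune markers lie to the right of the T18 libraries at T20. Neuronal structure and synapse does so by less. Hox genes, ribosome biogenesis and notochord and endoderm markers lie to the left, the last of these through Cdx1/zgc110179 alone. Neural plate and neural tube patterning factors and mesoderm and muscle markers lie to the left by less.

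The largest changes were taken by a rule of 8 rises and 8 falls among named loci. Apart from Fos, 3 of the 8 largest rises were subunits of collagen VI, a beaded filament of the matrix around cells. Ambp/Col6a4 (XLOC_006566) had 1.25, 3.30 and 3.78 at T18 and 892 and 1428 at T20, COL6A2 (XLOC_006884) had 6.24, 3.30 and 12.7 at T18 and 1248 and 2102 at T20, and Col6a1/SETD1A (XLOC_006886) had 5.0, 12.4 and 4.33 at T18 and 791 and 1104 at T20, with log2 fold changes of 8.40 ± 0.26, 7.44 ± 0.35 and 7.19 ± 0.27. These 3 lie together on scaf_00005. COL6A2 (scaf_00005, 14375128 to 14409798, minus strand) is 6.62 kb from Col6a1/SETD1A and 48.7 kb from Ambp/Col6a4. Another collagen VI locus, COL6A3 (XLOC_068849, named after its values were seen), had no count at T18 and 38.9 and 44.7 at T20, at least 17.8-fold higher against a floor of 3 counts per library. Of the others, WNT3 (XLOC_028782) encodes a Wnt ligand of the dorsal midline and had 6.24, 0 and 0 at T18 and 133 and 222 at T20. PRDM12 (XLOC_055725), a regulator of sensory neuron and interneuron fate, had 5.0, 2.48 and 1.35 at T18 and 208 and 475 at T20. Ptgs1 (XLOC_025692), cyclooxygenase 1, had 11.2, 0 and 4.33 at T18 and 281 and 901 at T20, and Cdcp2 (XLOC_024774), a membrane protein with a CUB domain, had 2.50, 0.826 and 17.3 at T18 and 639.8 and 3048 at T20. T20 replicate 2 was the higher library for 7 of these 8 loci, all but Fos.

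Among the 8 largest falls, tbx6 and Cdx1/zgc110179 were given above. Fgf3 (XLOC_001943), a posterior and hindbrain FGF, had 43.7, 372 and 515 at T18 and 1.49 and 9.31 at T20, and its call rested on having both T20 libraries (adjusted p = 0.0255, and 0.202 and 0.199 without either). NDUFA13 (XLOC_008073), a subunit of respiratory complex I, had 2101, 1787 and 2067 at T18 and 100.1 and 24.2 at T20. Psmc3ip (XLOC_006872), a cofactor of meiotic recombination, had 472, 606 and 1007 at T18 and 14.9 and 37.2 at T20, and PRDM14 (XLOC_013491), of germ cells and early neurons, had 1641, 2188 and 2325 at T18 and 167 and 39.1 at T20. The growth factor pdgfa (XLOC_003869) had 199.8, 282 and 324 at T18 and 14.9 and 14.9 at T20, and ST6GAL1 (XLOC_019716), a sialyltransferase, had 145, 126 and 157 at T18 and 5.98 and 11.2 at T20. These 6 had log2 fold changes between -5.95 and -4.09. Among loci with no name, XLOC_029499 had 12.5, 0 and 0.270 at T18 and 580.0 and 573 at T20 and XLOC_054339 had 1.25, 0 and 1.62 at T18 and 152 and 324 at T20, while XLOC_031587 had 496, 639 and 1156 at T18 and 8.97 and 0 at T20 and XLOC_006845 had 51.2, 90.8 and 195 at T18 and 0 and 1.86 at T20, at least 22.3-fold lower against a floor of 3 counts per library.

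**Figure D3:**
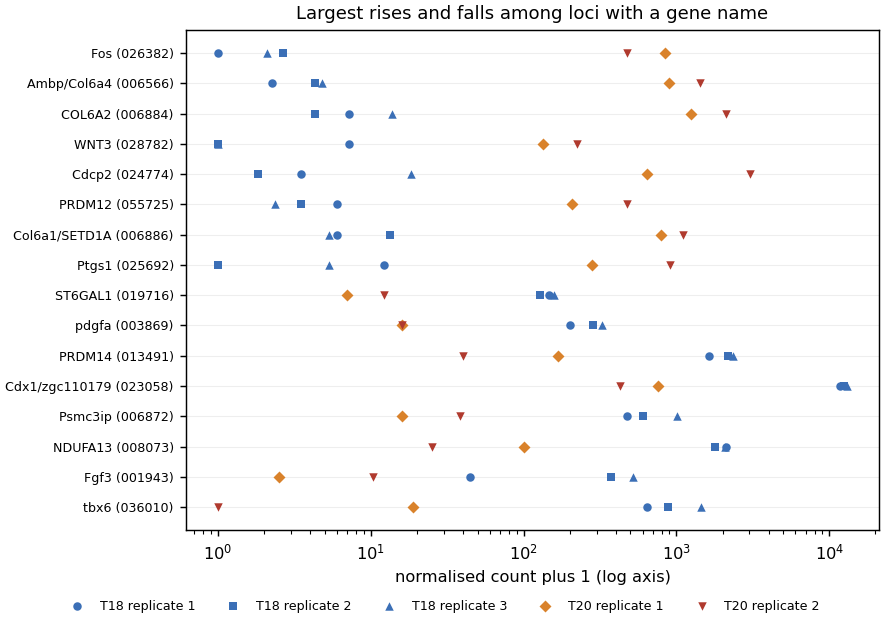
Normalised count plus 1 (log axis) in each library for the 8 largest rises and 8 largest falls among named loci, ordered by log2 fold change from Fos (9.16) to tbx6 (-6.66). Numbers in brackets are locus numbers. Blue symbols are the T18 libraries, orange diamonds T20 replicate 1 and red triangles T20 replicate 2.

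Of 32 tested loci of NC transcription factors 13 rose (40.6%), 7 fell (21.9%) and 12 were not called, beside 29.1% higher and 13.3% lower among named loci. The median log2 fold change was 0.57, against 0.25 over all named loci. The list moved in opposite directions within itself. Loci of SOX10, Sox9, Foxd3, Tfap2, MSX2 and Dlx rose, and loci of TWIST1, ets1-b, zic1, snai1, ZEB1 and MYCN fell. SOX10 (XLOC_021434), a SoxE factor that marks NC cells and their glia, had 96.2, 39.6 and 78.9 at T18 and 899.8 and 2761 at T20, which was a log2 fold change of 4.66 ± 0.54 and an adjusted p of 0.00233. Foxd3 (XLOC_039546), a winged helix factor of premigratory crest, had 27.5, 12.4 and 10.3 at T18 and 215 and 642 at T20, with a log2 fold change of 4.89 ± 0.56 and an adjusted p of 0.0011. Sox9 (XLOC_013714), another SoxE factor, had 5.0, 0 and 1.35 at T18 and 16.4 and 305 at T20, so that its rise came mainly from T20 replicate 2. Its call was lost without T18 replicate 2 (adjusted p = 0.0638) or replicate 3 (0.124). A further Sox9 locus (XLOC_003722) had 61.2, 44.6 and 125 at T18 and 103 and 212 at T20 and was not called (adjusted p = 0.256), except without T18 replicate 3 (0.00787).

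Some factors of the neural plate border rose too, among them the MSX2 and AP-2 loci, while PAX7 and Zic4 were not called and the zic1 loci fell. MSX2 (XLOC_017489), a homeobox repressor downstream of BMP, had 1261, 1302 and 1214 at T18 and 3094 and 4334 at T20, and the second MSX2 locus (XLOC_020593) had 107, 104 and 110.3 at T18 and 129 and 313 at T20. The latter lost its call without several libraries, since leaving out T20 replicate 2 gave an adjusted p of 0.621 and leaving out any T18 library gave 0.0711 to 0.096. TFAP2B (XLOC_001751) had 3283, 3431 and 3132 at T18 and 4829.6 and 8142 at T20, Tfap2b (XLOC_019839) had 753, 697 and 579.9 at T18 and 1308 and 2189.6 at T20 and Tfap2a (XLOC_063192) had 169, 218 and 131 at T18 and 309 and 637 at T20. These AP-2 factors, shared by crest and epidermis, were all highest in T20 replicate 2. The Dlx loci, homeobox genes of crest mesenchyme and placodes, ranged from 1.88 for dlxA (XLOC_006606), which had 522, 327 and 309.8 at T18 and 1081 and 1750.2 at T20, through 2.43 for dlxC (XLOC_018612), with 91.2, 62.8 and 54.6 at T18 and 253 and 484 at T20, to 4.30 for dlxE (XLOC_006935), with 37.5, 10.7 and 5.41 at T18 and 259 and 337 at T20. dlxA and dlxE lie 56.6 kb apart on scaf_00005. lmo4-a/lmo4.1 (XLOC_033046), a LIM-only cofactor, had 159, 204 and 218 at T18 and 300.4 and 430.1 at T20 and was not called without T20 replicate 2 (adjusted p = 0.13). SSUH2/TFE3 (XLOC_027846), which carries the name of a relative of the pigment factor MITF, had 302, 287 and 285 at T18 and 1126 and 1095 at T20. In 12 of the 13 loci that rose, all but SSUH2/TFE3, T20 replicate 2 was above replicate 1.

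Of the 7 NC loci that fell, TWIST1 (XLOC_018854), a bHLH factor of mesoderm and crest mesenchyme, had 2614, 2772 and 2728 at T18 and 928 and 240.2 at T20 and fell by 2.20 on the log2 scale, with adjusted p = 0.0271. Without T18 replicate 2 or 3 that was 0.0522 and 0.0554. A second TWIST1 locus (XLOC_006540) had 147, 121 and 115 at T18 and 209 and 207 at T20 and was not called (adjusted p = 0.0547), though it was without T18 replicate 1 (0.0461). ets1-b (XLOC_030328), an Ets factor of crest and endothelium, had 425, 406 and 1038 at T18 and 197 and 155 at T20, and no call remained without T20 replicate 1 (0.161) or 2 (0.265). A low ETS1 locus (XLOC_003893) had 0, 0 and 0.541 at T18 and 0 and 11.2 at T20 and was not called. The zinc finger factor zic1, of the neural plate border, shares the overlapping loci Pou4f1/zic1 with a sensory neuron factor. XLOC_044133 had 3533, 3983 and 3858 at T18 and 2472 and 1415 at T20, and XLOC_044134 had 1088, 1297 and 1502 at T18 and 764 and 344 at T20. The second of these lost its call without T18 replicate 2, T18 replicate 3 or T20 replicate 2 (adjusted p = 0.0629, 0.076 and 0.101). snai1 (XLOC_048217), a repressor of cadherins, had 152, 135 and 173 at T18 and 98.7 and 52.1 at T20 and an adjusted p of 0.0478, which passed 0.05 when any T18 library or T20 replicate 2 was left out (0.0675 to 0.242).

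ZEB1 (XLOC_006700), a repressor of epithelial genes, had 9118, 9346 and 8840.4 at T18 and 6785 and 5375 at T20, and MYCN (XLOC_003703), a growth regulator, had 14223, 14834 and 14566 at T18 and 10676 and 12598 at T20. MYCN lost its call without T18 replicate 2 (0.0672) or 3 (0.0528). In 6 of the 7 loci that fell, T20 replicate 2 was the lower library, MYCN being the other. The count of falls was 3 without T18 replicate 2, 3 without T18 replicate 3 and 4 without T20 replicate 2, while the count of rises stayed within 1.5 times of 13 in every one of these.

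Several border and specifier genes were not called. PAX7 (XLOC_042727), a paired box factor of the border, had 275, 186 and 159 at T18 and 279.5 and 272 at T20 (adjusted p = 0.236, and 0.0454 without T18 replicate 1). Zic4 (XLOC_000217) had 416, 372 and 345 at T18 and 393 and 350.0 at T20, ZEB2 (XLOC_018527) had 4488, 3494 and 3409 at T18 and 3869.9 and 3742 at T20, Prdm1 (XLOC_000324) had 3454, 2841 and 2508 at T18 and 3416 and 3479.9 at T20, and myca (XLOC_002000) had 229, 177 and 208 at T18 and 229 and 194 at T20. Of the SoxD loci, sox5/SOX6 (XLOC_046304) had 521, 493 and 494 at T18 and 402 and 419 at T20, and sox5 (XLOC_056139) had 1008, 966 and 789 at T18 and 856 and 795 at T20. 2C/Zeb2 (XLOC_004958) had 53.7, 70.2 and 65.2 at T18 and 115 and 50.3 at T20, and was called only without T20 replicate 2 (adjusted p = 0.016). ARID1B/TFAP2B (XLOC_000447) had 0, 9.91 and 0 at T18 and 0 and 3.72 at T20, at or near the floor. PAX7, MSX2, Zic4 and the zic1 loci, which mark the dorsal tube and its border, were above the floor in all 5 libraries.

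**Figure D4:**
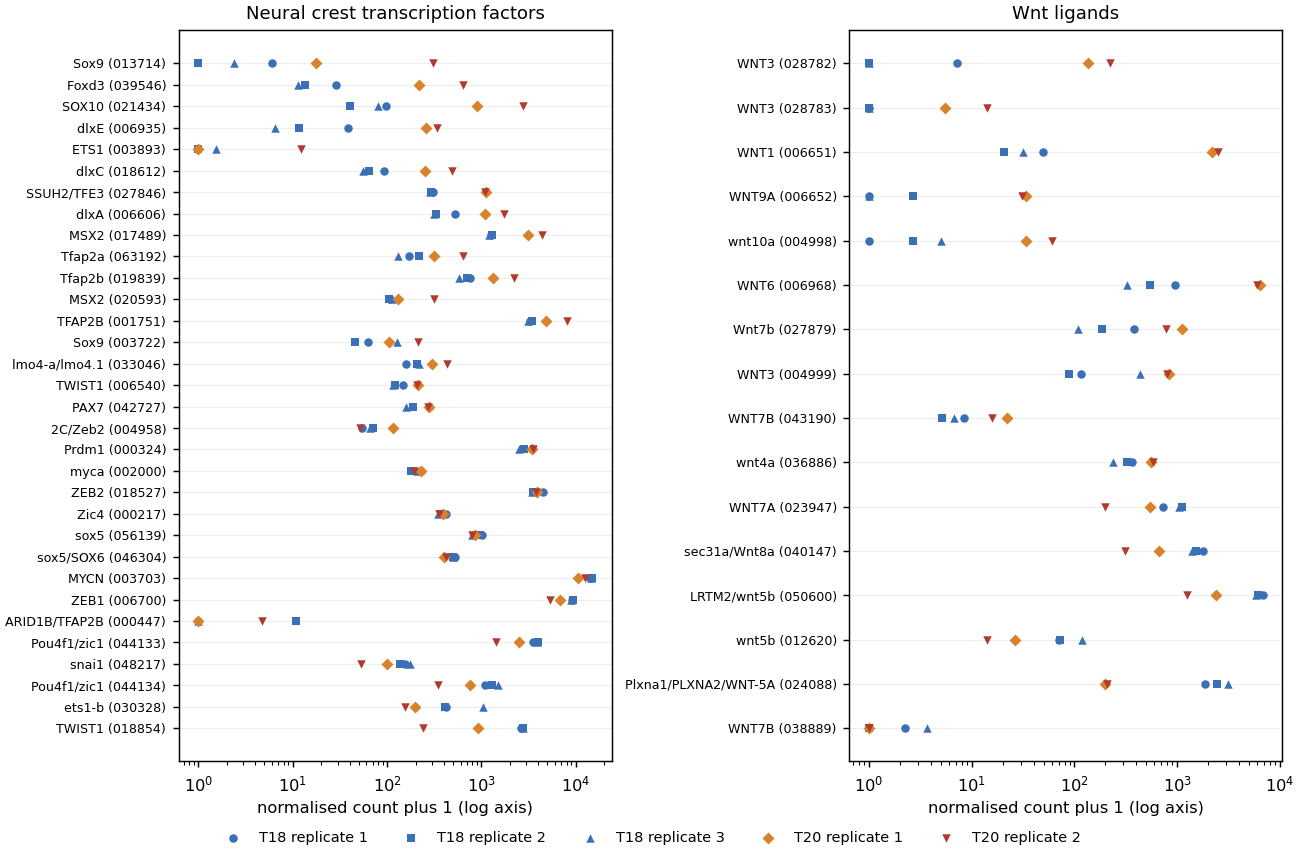
Normalised count plus 1 (log axis) in each library for every tested locus of the NC transcription factor list (left) and of the Wnt ligand list (right), ordered by log2 fold change. Blue symbols are T18, orange diamonds T20 replicate 1 and red triangles T20 replicate 2. In the left panel red lies to the right of orange for 12 of the 13 loci that rose.

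Wnt ligands are secreted signals that induce the NC border and pattern the dorsal tube. Of 16 tested loci 8 rose (50%), 4 fell (25%) and 4 were not called, beside 29.1% higher and 13.3% lower among named loci. The median was 1.74. The summed level of the ligand list was 12412 to 13062 at T18 and 15049 and 12882 at T20, so replicate 2 lay within the T18 range. Without WNT6 (XLOC_006968) the sum was 11867 to 12401 at T18 and 8696 and 6943 at T20. WNT1 (XLOC_006651), at scaf_00005, 20135118 to 20165025, plus strand, had 48.7, 19.8 and 30.6 at T18 and 2184 and 2486 at T20, which was a log2 fold change of 6.20 ± 0.20 and an adjusted p of 1.36e-08. The T20 libraries were close to each other for this gene and far above every T18 library. WNT3 (XLOC_028782) was given above, and the overlapping WNT3 locus XLOC_028783 had 0, 0 and 0 at T18 and 4.48 and 13 at T20, at least 3.73-fold higher against the floor. WNT9A (XLOC_006652) had 0, 1.65 and 0 at T18 and 32.9 and 29.8 at T20, at least 13.4-fold higher. wnt10a (XLOC_004998) had 0, 1.65 and 4.06 at T18 and 32.9 and 59.6 at T20, and WNT6 (XLOC_006968) had 940.4, 545 and 321 at T18 and 6353 and 5939 at T20 (3.38 ± 0.40, adjusted p = 0.00196). Wnt7b (XLOC_027879) had 376, 183 and 108 at T18 and 1115 and 773 at T20, a call that was lost without T18 replicate 2 (0.0583), T20 replicate 1 (0.142) or T20 replicate 2 (0.0967). wnt4a (XLOC_036886) had 359.7, 327 and 236 at T18 and 558 and 585 at T20. WNT1 lies 26.1 kb from WNT9A and 28.0 kb from WNT6, all 3 on scaf_00005, and all 3 rose. On scaf_00004 wnt10a lies 14.7 kb from another WNT3 locus (XLOC_004999), which had 115, 86.7 and 437 at T18 and 822 and 788 at T20 and was not called (adjusted p = 0.132) except without T18 replicate 3 (2.17e-06). Low WNT7B loci were not called. XLOC_043190 had 7.49, 4.13 and 5.68 at T18 and 20.9 and 14.9 at T20, and XLOC_038889 had 1.25, 0 and 2.70 at T18 and 0 and 0 at T20.

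The 4 Wnt loci that fell included noncanonical ligands. Plxna1/PLXNA2/WNT-5A (XLOC_024088), whose names are those of a plexin and of Wnt5a, had 1859.5, 2459 and 3149 at T18 and 197 and 205 at T20, with a log2 fold change of -3.64 ± 0.24 and an adjusted p of 2.64e-06. wnt5b (XLOC_012620) had 69.9, 71.9 and 118 at T18 and 25.4 and 13 at T20, LRTM2/wnt5b (XLOC_050600) had 6776, 6069 and 5883 at T18 and 2362 and 1249 at T20, and sec31a/Wnt8a (XLOC_040147) had 1777, 1529 and 1396 at T18 and 668 and 307 at T20. WNT7A (XLOC_023947) had 724, 1114 and 1029.8 at T18 and 541 and 199 at T20 and an adjusted p of 0.0993, which was 0.0391 without T20 replicate 1. Since the loci named LRTM2/wnt5b and sec31a/Wnt8a also carry the name of another gene, their counts cannot be assigned to the ligand alone.

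For Wnt receptors and modulators, secreted ones included, the balance of calls was the other way. Of 37 loci 18 fell (48.6%) and 6 rose (16.2%), against 13.3% lower and 29.1% higher among all named loci. The median was -0.54. The secreted agonist rspo2 (XLOC_037520) had 1491, 1523 and 1977 at T18 and 181 and 158 at T20 and fell by 3.30 on the log2 scale (SE 0.20, adjusted p = 4.03e-07). TCF7L2 (XLOC_014951), a nuclear effector, had 481, 676 and 998 at T18 and 62.8 and 48.4 at T20, and AXIN1 (XLOC_003272), a scaffold of the complex that destroys beta-catenin, had 245, 91.7 and 191 at T18 and 56.8 and 35.4 at T20. Named after their values were seen, 3 loci of PTK7, a receptor of planar polarity, all fell. The most abundant of them (XLOC_026395) had 19439, 21413 and 23169.7 at T18 and 9726 and 8269 at T20. The largest rises were at low loci, named after their values were seen. SFRP5 (XLOC_017685) had 0, 0 and 0 at T18 and 0 and 29.8 at T20, so its rise came from T20 replicate 2 alone. The far more abundant SFRP1/SFRP5 locus (XLOC_020509) had 12819, 16429 and 15687 at T18 and 12239 and 7505 at T20. It was not called (adjusted p = 0.0748) and was also named after its values were seen. wif1 (XLOC_066501) had 2.50, 3.30 and 0.541 at T18 and 8.97 and 18.6 at T20. LMCD1/Prickle3 (XLOC_028002) had 12.5, 14.9 and 19.5 at T18 and 58.3 and 31.7 at T20. The other rises were smaller. Prickle2 (XLOC_009242) had 558, 471 and 557 at T18 and 851 and 1087 at T20, axin1 (XLOC_021511) had 2292, 2629 and 2466 at T18 and 3867 and 2931 at T20, and CTNNB1 (XLOC_005251), beta-catenin, had 3035, 2849 and 2863 at T18 and 3223 and 5025 at T20. axin1 lost its call without T18 replicate 1 (0.0636) or T20 replicate 1 (0.128), and CTNNB1 lost it without any T18 library (0.0728 to 0.116) or without T20 replicate 2 (0.444). Other loci with the names Prickle2 and axin1, named after their values were seen, fell and were more abundant. PRICKLE2 (XLOC_023946) had 3856, 3711 and 4128 at T18 and 2138 and 1916 at T20, and a locus that carries the name axin1 (XLOC_035147) had 7543, 7243 and 7276 at T18 and 5299 and 4483 at T20. The count of rises was 3 without T18 replicate 1 and 3 without T18 replicate 3.

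BMP signals pattern the dorsal tube and the border. The list of BMP and TGF-beta signalling leaned upwards, with 20 of 45 loci higher (44.4%) and 7 lower (15.6%). Among named loci these shares were 29.1% and 13.3%, and the median of the list was 0.54. It holds ligands, receptors, targets and inhibitors, so its counts do not measure the supply of signal. Loci of the inhibitors SMAD6 and BAMBI, named after their values were seen, were among the rises. SMAD6 (XLOC_031111) had 701, 713 and 695 at T18 and 1936 and 2355 at T20. BAMBI (XLOC_006421) had 61.2, 31.4 and 43 at T18 and 212 and 303 at T20. The secreted antagonist fsta (XLOC_008338), follistatin, had 97.4, 38 and 30.8 at T18 and 2550.1 and 3117 at T20, with a log2 fold change of 5.88 ± 0.38 and an adjusted p of 6.04e-05. BMPER (XLOC_018504), an extracellular modulator, had 242, 129.7 and 131 at T18 and 1333 and 1609 at T20, and the roof plate ligand Bmp7 (XLOC_002109) had 92.4, 60.3 and 32.4 at T18 and 420.0 and 480.4 at T20. The ligand BMP4 (XLOC_034334, named after its values were seen) had 878, 540.1 and 390.1 at T18 and 3209 and 2098 at T20 and lost its call without T20 replicate 1 (adjusted p = 0.0529). The antagonist GREM1 (XLOC_042234) went down with 1509, 2720.4 and 3480.3 at T18 and 486 and 186 at T20, a call lost without T20 replicate 2 (adjusted p = 0.0893). ACVR2B (XLOC_007006), an activin receptor, had 2911, 2705 and 2430.2 at T18 and 1229 and 1326 at T20, and GDF10/lamtor3 (XLOC_040097) had 3272, 3390.2 and 3528 at T18 and 1646 and 1683 at T20. A low locus named GDF10 alone (XLOC_040099, named after its values were seen) lies within the span of GDF10/lamtor3 on its strand. It had 30, 49.6 and 50 at T18 and 29.9 and 72.6 at T20 and was not called (adjusted p = 0.819). The fall of GDF10/lamtor3 cannot be assigned to GDF10.

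In the FGF list 3 of 15 loci rose (20%) and 2 fell (13.3%), beside 29.1% and 13.3% of named loci. Fgf3 was among the falls. FGF19 (XLOC_046406) had 94.9, 52 and 60.3 at T18 and 208 and 216 at T20 and FGF8 (XLOC_017586), the signal of the midbrain-hindbrain boundary, had 653, 624 and 1045 at T18 and 1631 and 1244 at T20. The FGF8 call was lost without T18 replicate 2 (0.0563), T20 replicate 1 (0.23) or T20 replicate 2 (0.0872). A far more abundant locus with FGF8 among its names, FBXW4/FGF8/npm1/SUFU (XLOC_020613, named after its values were seen), was not called (adjusted p = 0.0545). It had 37007, 40858 and 37162 at T18 and 28744 and 34352 at T20. Etv4 (XLOC_018831), an FGF target, had 2190.4, 2366 and 2843 at T18 and 1587 and 1296 at T20. The remaining rise, FGF9/MLH (XLOC_003810, named after its values were seen), had 17.5, 3.30 and 9.46 at T18 and 34.4 and 65.2 at T20. In the Hedgehog list 5 of 14 rose (35.7%) and 2 fell (14.3%), and the median was 0.01 (-0.10 with upper quartile normalisation). The co-receptors CDON (XLOC_030292) and GAS1 (XLOC_031082) had 1767, 1468 and 1451 at T18 and 3566 and 3983 at T20 and 751, 780.4 and 814 at T18 and 1075 and 1208 at T20, and Gli3 (XLOC_006831) had 3633, 3149.9 and 2847 at T18 and 5007 and 4267 at T20. The other rises, HHIP (XLOC_027039), a ligand trap, and C02F5.7/Gli2 (XLOC_018799), were named after their values were seen. They had 9.99, 4.96 and 8.92 at T18 and 46.3 and 37.2 at T20 and 1531, 1641 and 1574 at T18 and 1891 and 2079.7 at T20, and the latter lost its call without any T18 library (0.0772 to 0.093), T20 replicate 2 (0.147) or T21 replicate 1 (0.0549). ptc (XLOC_024828), a receptor and target, had 2167, 1930.1 and 2033 at T18 and 1475 and 791 at T20 and lost its call without any T18 library (0.0563 to 0.0753), and shha was the other fall.

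Of 19 Notch loci 5 rose (26.3%) and 4 fell (21.1%), beside 29.1% and 13.3% of named loci. The median was 0.16 (0.09 with loci at the floor set to their bound). Dtx4 (XLOC_009243) had 171, 118 and 85.2 at T18 and 673 and 838 at T20, the ligand Jag1 (XLOC_060286) had 77.4, 39.6 and 45.4 at T18 and 145 and 199 at T20, and Numbl (XLOC_011584), an inhibitor, had 542, 504 and 470.4 at T18 and 895 and 802 at T20. The ligand DLL1 (XLOC_029536) had 353, 373 and 586 at T18 and 133 and 80.1 at T20, Lfng (XLOC_003470) had 2628, 2872 and 3179 at T18 and 2146 and 1605 at T20, and jag1b (XLOC_061279) had 379.6, 302 and 426 at T18 and 236 and 235 at T20. For jag1b the adjusted p was 0.0607, 0.123 and 0.0681 without T18 replicate 1, T18 replicate 3 and T20 replicate 2. The other called loci, named after their values were seen, were the target Hes1 (XLOC_036850), with 2676, 3318 and 3074 at T18 and 4028 and 4167 at T20, Dll4/JAG1/jag1a (XLOC_026301), with 955, 823 and 719 at T18 and 1102 and 1091 at T20, and the receptor notch1 (XLOC_055543), with 6262, 5552 and 6136 at T18 and 3992 and 3843 at T20. Dll4/JAG1/jag1a lost its call in every fit without 1 library except that without T18 replicate 1 (0.0508 to 0.143). Retinoic acid loci split evenly, 4 of 12 (33.3%) in each direction, beside 29.1% higher and 13.3% lower among named loci. The median of the retinoic acid list was 0.04, and -0.07 with upper quartile normalisation. The receptor raraa/RARB (XLOC_006819) had 242, 168 and 151 at T18 and 1081 and 1035 at T20, the binding protein crabp2 (XLOC_048304) had 632, 568 and 503 at T18 and 1522 and 1349.9 at T20, and the degrading enzyme CYP26C1 (XLOC_020698) had 232, 318 and 427 at T18 and 609.9 and 683 at T20. CYP26C1 lost its call without either T20 library (0.141 and 0.243). Its neighbour at 23 kb, CYP26A1 (XLOC_020696), which degrades retinoic acid as well, fell, with 582, 975 and 1259 at T18 and 80.7 and 109.9 at T20. Rdh10 (XLOC_002072), an enzyme of its synthesis, had 747, 913 and 1167 at T18 and 155 and 173 at T20, and rarga (XLOC_018778), a receptor, had 4489.6, 4860.3 and 4578 at T18 and 2789 and 2506 at T20. The other rise and fall, named after their values were seen, were STRA6 (XLOC_008308), of retinol uptake, with 7.49, 10.7 and 8.38 at T18 and 127 and 57.7 at T20, and DHRS3 (XLOC_042648), a retinal reductase, with 721, 674 and 728 at T18 and 544 and 281 at T20. DHRS3 lost its call without any T18 library, T20 replicate 2 or T21 replicate 1 or 2 (0.0706 to 0.193).

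Among 57 loci of neural plate and tube patterning factors 23 rose (40.4%) and 12 fell (21.1%), beside 29.1% and 13.3% of named loci. The median was 0.73 (0.52 with loci at the count floor set to their bound). The summed level was lower, with 53365 to 56684 at T18 and 51765 and 45914 at T20. SALL2 (XLOC_005414) had 15620, 16261 and 16258 at T18 and 12327 and 10017 at T20. Without it the sum was 37745 to 40423 at T18 and 39438 and 35897 at T20. Sall3 (XLOC_010426) had 3332, 3526 and 3786 at T18 and 1882 and 1173 at T20. Both loci fell and were named after their values were seen. sox1 (XLOC_047453), a SoxB1 factor of neural progenitors, had 9.99, 16.5 and 20.8 at T18 and 2007 and 2096 at T20, with a log2 fold change of 6.84 ± 0.17 and an adjusted p of 3.13e-10, the smallest adjusted p of the loci named. A more abundant locus, SOX1 (XLOC_048580, named after its values were seen), had 4587, 4626 and 4356 at T18 and 4855 and 4498 at T20 and was not called. mafb (XLOC_040707), of the posterior hindbrain, had 66.2, 21.5 and 28.1 at T18 and 1118 and 657 at T20, and egr1-b was given above with the immediate early genes. The midbrain-hindbrain factors eng2a (XLOC_006778), pax2a (XLOC_014824) and PAX5 (XLOC_040186), named after their values were seen, had 21.2, 11.6 and 20.8 at T18 and 296 and 439 at T20, 255, 217 and 187 at T18 and 1537 and 1791 at T20 and 64.9, 17.3 and 17.6 at T18 and 235 and 486 at T20. Falls included gsc, given above, and genes of the anterior plate. lhx1 (XLOC_009428) had 155, 168 and 246 at T18 and 19.4 and 3.72 at T20, and SIX3 (XLOC_011752), of the forebrain and eye field, had 89.9, 289.9 and 393 at T18 and 65.8 and 44.7 at T20. SIX3 lost its call without T18 replicate 2 or 3 or either T20 library (adjusted p = 0.0627 to 0.271). The eye field factor Rx (XLOC_035083), also named after its values were seen, had 152, 135 and 136 at T18 and 46.3 and 29.8 at T20. The count of falls was 7 without T20 replicate 2.

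Hox genes, which mark position along the hindbrain and trunk, fell as a list, with a median of -1.47. Of 18 loci 11 were lower (61.1%) and 2 higher (11.1%), beside 13.3% and 29.1% of named loci. The summed level of the Hox list was 17303 to 21666 in the T18 libraries and 11525 and 8205 in those of T20. hox-alpha9 (XLOC_005118) had 318, 296 and 372 at T18 and 29.9 and 11.2 at T20, hox-epsilon7/hox-epsilon8(exon2) (XLOC_006396) had 231, 181 and 219 at T18 and 19.4 and 33.5 at T20, and Hox-alpha8 (XLOC_005119) had 109, 187 and 169 at T18 and 23.9 and 27.9 at T20. hox-delta11/hox-delta4/hox-delta8 (XLOC_033547) had 77.4, 26.4 and 17.8 at T18 and 265 and 195 at T20 and hox-alpha2 (XLOC_005123) had 1003, 799 and 697 at T18 and 1178 and 1337 at T20, and these were the loci that rose. For hox-alpha2 the adjusted p was 0.0566, 0.0516 and 0.0512 without T18 replicate 2, T18 replicate 3 and T20 replicate 2. In the alpha cluster hox-alpha4 (XLOC_005121) had 1269, 1163 and 1093 at T18 and 223 and 194 at T20 and hox-alpha5/hox-alpha6 (XLOC_005120) had 793, 711 and 776 at T18 and 151 and 153 at T20, both named after their values were seen. From hox-alpha2 through hox-alpha4, hox-alpha5/hox-alpha6 and Hox-alpha8 to hox-alpha9 the log2 fold changes were 0.59, -2.50, -2.33, -2.60 and -3.96. Genes of the first paralogue group went apart. hox-beta1 (XLOC_018557) had 4582, 3896 and 4052 at T18 and 4000.0 and 3545 at T20 and was not called, while HOXB1 (XLOC_017509) fell, with 129.9, 228 and 234 at T18 and 106 and 80.1 at T20, as did hox-epsilon1/skap-epsilon (XLOC_006403), with 12359.7, 10192 and 8802 at T18 and 5179 and 2357 at T20. HOXB1 lost its call without T18 replicate 2 or 3, T20 replicate 2 or any T21 library (adjusted p = 0.0529 to 0.13), and hox-epsilon1/skap-epsilon without any T18 library, T20 replicate 2 or T21 replicate 3 (0.0602 to 0.124). These, and HOXC9, were named after their values were seen. HOXC9 (XLOC_064711) had 33.7, 40.5 and 56.8 at T18 and 0 and 0 at T20, at least 8.67-fold lower against the floor.

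Neuronal genes changed in both directions. Of 31 differentiation factors 12 rose (38.7%) and 6 fell (19.4%), beside 29.1% and 13.3% of named loci, and PRDM12 was given above. PRDM8 (XLOC_040171), of differentiating neurons, had 17.5, 29.7 and 19.7 at T18 and 277 and 296 at T20, and the proneural factor Neurog2 (XLOC_040165) had 43.7, 38 and 23.3 at T18 and 435 and 387 at T20. PRDM14 and the Pou4f1/zic1 loci were among the falls, with lbx1 (XLOC_017803), of dorsal interneurons, at 226, 219 and 266 at T18 and 83.7 and 128 at T20. Of 83 loci of neuronal structure and synapse 28 rose (33.7%) and 4 fell (4.82%), with a median of 0.65 (0.50 with loci at the floor set to their bound), and T20 replicate 2 was the higher for 18 of the 28. PENK (XLOC_000140), an opioid peptide precursor, had 0, 0 and 3.51 at T18 and 67.3 and 430.1 at T20. SYT14 (XLOC_034566) and Cadps (XLOC_012949), of vesicle release, had 31.2, 32.2 and 28.1 at T18 and 253 and 379.8 at T20 and 9.99, 14.9 and 10.8 at T18 and 88.2 and 128 at T20. Among the falls were SCN3A (XLOC_028779), a sodium channel, with 135, 103 and 126 at T18 and 34.4 and 42.8 at T20, GABRA3 (XLOC_027169), a GABA receptor subunit, with 468, 529 and 487 at T18 and 291 and 268 at T20, and CNGB1/Map1a (XLOC_008247, named after its values were seen) with 1601, 1324 and 1406 at T18 and 1001 and 1125 at T20. Cadps overlaps another locus of the same strand on scaf_00010, so how reads were divided there is uncertain.

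Axon guidance and Eph-ephrin loci split, 12 of 64 higher (18.8%) and 17 lower (26.6%), beside 29.1% and 13.3% of named loci. The median was -0.01, -0.12 with upper quartile normalisation and 0.01 with loci at the floor set to their bound. SEMA5A/SEMA5B (XLOC_018517), a semaphorin, had 77.4, 111 and 82.5 at T18 and 849 and 505 at T20, sema3aa/sema3ab (XLOC_028004) had 74.9, 66.9 and 48.1 at T18 and 187 and 189.9 at T20, and CNTN1/sax-3 (XLOC_050007) had 20.0, 22.3 and 27.6 at T18 and 159.9 and 98.7 at T20. Besides the plexin locus given with the Wnt ligands, the chemokine cxcl12 (XLOC_014914) fell, with 617, 443 and 428 at T18 and 82.2 and 63.3 at T20, and the semaphorin receptor Nrp1/Nrp2 (XLOC_018544) had 761, 726 and 803 at T18 and 208 and 91.2 at T20.

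In the matrix list 42 of 123 loci rose (34.1%) and 17 fell (13.8%), beside 29.1% and 13.3% of named loci. The summed level was 116295 and 123988 at T20 against 137168 to 156282 at T18. Without COL22A1 (XLOC_019836) the sums overlapped, at 106465 and 108773 against 104158 to 118036. The most abundant of those that fell were fn1 (XLOC_028729), for fibronectin, lamc1 (XLOC_025457), a laminin of basement membranes, and COL22A1 (XLOC_019836), named after their values were seen. They had 38335, 36809 and 43857 at T18 and 21755 and 20784 at T20, 16348, 14976 and 17005 at T18 and 8879 and 7947 at T20 and 28786, 33010.1 and 38246 at T18 and 9829.5 and 15215 at T20. Less abundant loci with the same names rose, and were also named after their values were seen. An fn1 locus (XLOC_045097) had 43.7, 38 and 43.8 at T18 and 121 and 156 at T20, and the COL22A1 locus XLOC_046828 had 105, 59.5 and 88.7 at T18 and 164 and 145 at T20, a call lost without T18 replicate 2 (0.073) or T20 replicate 1 (0.0622). A locus with COL22A1 and COL3A1 among its names (XLOC_019607) had 408, 234 and 281 at T18 and 544 and 649.8 at T20, a call lost without T18 replicate 2, T18 replicate 3 or either T20 library (0.0653 to 0.175). By the rule for named loci the falls were Fbln2 (XLOC_028043), with 1213, 1164 and 1292 at T18 and 98.7 and 128 at T20, COL3A1 (XLOC_060533), with 88.7, 67.7 and 139.5 at T18 and 7.47 and 16.8 at T20, and EGFL6 (XLOC_059541), with 209, 315 and 424 at T18 and 71.7 and 18.6 at T20. Of 61 matrix enzymes 21 rose (34.4%) and 10 fell (16.4%). has1 (XLOC_030256), which makes hyaluronan, had 8.74, 6.61 and 10.0 at T18 and 141 and 402 at T20, ADAMTS14/ADAMTS3 (XLOC_014877), of procollagen processing, had 8.74, 11.6 and 16 at T18 and 118 and 130.3 at T20, and MMP21/SRSF5 (XLOC_013869) had 45, 57 and 40.3 at T18 and 263 and 473 at T20. LOX (XLOC_044621), a collagen crosslinking enzyme, had 195, 139.6 and 217 at T18 and 70.3 and 37.2 at T20, Crtap/FKBP9 (XLOC_028687) had 1004, 786 and 1017 at T18 and 338 and 287 at T20, and SULF1/SULF2 (XLOC_037534), which trims heparan sulphate, had 3689, 3265 and 3677 at T18 and 1330.3 and 1296 at T20. Some other loci with these names went the other way, and all those given were named after their values were seen. A second Lox locus (XLOC_031022) had 28.7, 22.3 and 11.9 at T18 and 85.2 and 72.6 at T20 and a second SULF1/Sulf2 locus (XLOC_002073) had 202, 180.0 and 135 at T18 and 1057 and 752 at T20, and both rose. Further MMP21 loci lie within the span of MMP21/SRSF5 on its strand, so how reads were divided there is uncertain. Of these XLOC_013872 rose as well, with 3.75, 4.96 and 3.78 at T18 and 38.9 and 20.5 at T20. The MMP21 loci XLOC_013874 and XLOC_013876 fell, with 11.2, 22.3 and 77.3 at T18 and 0 and 0 at T20 and 8.74, 42.1 and 44.9 at T18 and 2.99 and 0 at T20. Both lost the call without T20 replicate 2 (0.0554 and 0.0513), and the first also without T20 replicate 1 (0.055).

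Of 38 integrin and focal adhesion loci 20 rose (52.6%) and 3 fell (7.89%), beside 29.1% and 13.3% of named loci. The median was 0.78, and the count of falls was not stable without T20 replicate 1. TENC1/TNS (XLOC_005463), a tensin, had 576, 273 and 252 at T18 and 3558 and 3832 at T20, ITGA10/ITGA11/ITGA2 (XLOC_015735), a collagen-binding integrin, had 104, 76.8 and 77.3 at T18 and 829.6 and 592 at T20, and LGALS3 (XLOC_029472) had 465, 312 and 343 at T18 and 1619 and 3013 at T20. The falls were TNS1 (XLOC_018872), with 693, 751 and 792 at T18 and 398 and 277 at T20, TNS (XLOC_045149), with 1932, 1919 and 1854 at T18 and 1294 and 1145 at T20, and Tln2 (XLOC_008233), with 1328, 1189 and 1238 at T18 and 846 and 873 at T20. A more abundant TLN2 locus (XLOC_015780, named after its values were seen) rose, with 3737, 3090.4 and 3477 at T18 and 4203 and 5349 at T20, and lost its call without T18 replicate 2 (0.06) or T20 replicate 2 (0.0667). In the list of cadherins and junctions 23 of 51 loci rose (45.1%) and 5 fell (9.8%), beside the 29.1% and 13.3% of named loci. This count of falls was not stable without T20 replicate 1 either. The rises were led by desmosomal genes, DSC1 (XLOC_009544) with 17.5, 7.43 and 14.6 at T18 and 127 and 181 at T20, DSC2 (XLOC_010295) with 61.2, 40.5 and 44.6 at T18 and 123 and 525 at T20 and Ap4m1/decr2/EVPL/Ppl (XLOC_035240) with 1877, 1207 and 961 at T18 and 8399 and 9125 at T20, and these also stand in the epidermis list. DSC2 lost its call without T18 replicate 3 (adjusted p = 0.0501). The falls included cdh4 (XLOC_036193), with 196, 239.5 and 399 at T18 and 65.8 and 35.4 at T20, Cldn19 (XLOC_006803), with 2072, 2775 and 2750.3 at T18 and 1001 and 1349.9 at T20, and CDH2 (XLOC_065744), N-cadherin, with 249.8, 212 and 175 at T18 and 74.7 and 125 at T20. The CDH2 call was lost without T18 replicate 1, T18 replicate 2 or T20 replicate 1 (0.0631, 0.0689 and 0.105). Of the other loci with names of N-cadherin most were not called, and those called, named after their values were seen, rose. CadN (XLOC_032345) had 22.5, 15.7 and 16 at T18 and 53.8 and 91.2 at T20, and the CDH2 locus XLOC_030300 had 141, 125 and 118 at T18 and 164 and 344 at T20, a call lost without T18 replicate 2 (0.0696), T18 replicate 3 (0.069) or T20 replicate 2 (0.384). The other falls, named after their values were seen, were FAT1/Fat2 (XLOC_050471), with 11065, 11338 and 14975 at T18 and 7922 and 5128 at T20, and DIAPH1/DIAPH2/Pcdh8 (XLOC_023138), with 1559, 1506 and 1687 at T18 and 1094 and 1326 at T20. The first lost its call without either T20 library (0.0546 and 0.257) and the second without T18 replicate 3, T20 replicate 1 or T21 replicate 2 (0.0522 to 0.0955).

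Genes of ribosome biogenesis fell together and by little. Of 72 loci 46 fell (63.9%), 2 rose (2.78%) and 24 were not called, beside 13.3% lower and 29.1% higher among named loci. The median was -0.43 and no fall passed a log2 change of 1. The sum was 537042 to 564366 at T18 and 404592 and 416872 at T20. With upper quartile normalisation 55 fell, and 2 rose as before. Among the larger falls IMP4 (XLOC_063061) had 295, 377 and 367 at T18 and 212 and 164 at T20, Urb1 (XLOC_005250) had 4225, 4572 and 5064 at T18 and 2535 and 2698 at T20, and UTP20 (XLOC_016532) had 4407, 4404 and 4753 at T18 and 3013 and 2098 at T20, all of the complexes that process ribosomal RNA precursors. The most abundant, nucleolin (ncl, XLOC_050994, named after its values were seen), had 157100, 164425 and 157985 at T18 and 112401 and 107669 at T20. KIF6/WDR74 (XLOC_053840) had 101, 126 and 119 at T18 and 179 and 222 at T20 and lost its call without T20 replicate 2 (adjusted p = 0.0994). The other rise, Ddx55/tlcd2 (XLOC_065807), had no count at T18 and 47.8 and 20.5 at T20, at least 14.6-fold higher. Another locus that carries the name ddx55 (XLOC_036052, named after its values were seen) fell, with 1218, 1416 and 1639 at T18 and 886 and 1076 at T20, and lost its call without T18 replicate 3 (0.0565) or T20 replicate 1 (0.0523).

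Secretory and lipid genes were called higher no more often than named loci at large (29.1%), and their counts depended on single libraries and on the scaling. Of 80 loci of endoplasmic reticulum and Golgi transport 19 rose (23.8%) and 2 fell (2.5%). Without T18 replicate 2 the rises were 9, without T18 replicate 3 they were 10, and with upper quartile normalisation they were 11 beside 5 falls. STX5 (XLOC_026252) had 171, 137 and 151 at T18 and 284 and 400.3 at T20, Lman1 (XLOC_008411), a cargo receptor, had 106, 76 and 94.6 at T18 and 206 and 182 at T20, and SEC61G (XLOC_005332) had 77.4, 91.7 and 68.7 at T18 and 142 and 145 at T20. SEC61G, of the translocation channel, lost its call without any of the 5 libraries (adjusted p = 0.0666 to 0.138). One fall was the sec31a/Wnt8a locus given above. The other, SURF4 (XLOC_032982), had 1106, 874 and 1118 at T18 and 737 and 819 at T20, and no call remained without T18 replicate 1 (0.0943), T18 replicate 3 (0.13) or T20 replicate 1 (0.0909). Of 19 sterol synthesis loci 5 rose (26.3%) and 1 fell. CYP51A1/Lss (XLOC_006805) had 23.7, 22.3 and 24.3 at T18 and 92.7 and 106 at T20, and Sc5d (XLOC_030223) had 63.7, 65.2 and 63 at T18 and 92.7 and 175 at T20, while Dhcr7 (XLOC_056047) had 1425, 1575 and 1756 at T18 and 689 and 536 at T20. Sc5d lost its call without any T18 library (0.0682 to 0.0915) or without T20 replicate 2 (0.394). 2 further rises, named after their values were seen, were a second CYP51A1/Lss locus (XLOC_006807), with 11.2, 11.6 and 7.03 at T18 and 52.3 and 80.1 at T20, and Slc5a6/Sqle (XLOC_002155), with 139.9, 102 and 89.5 at T18 and 164 and 240.2 at T20, which lost its call without T18 replicate 2 or 3, T20 replicate 2 or any T21 library (0.0554 to 0.223). The count of sterol rises was 3 without T18 replicate 2 or 3 or T21 replicate 2 or 3.

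Of 48 loci of motile cilia 8 rose (16.7%) and 3 fell (6.25%), both below the shares of named loci. Foxj1 (XLOC_003730), the master regulator of motile cilia, had 58.7, 90.8 and 44.1 at T18 and 288 and 266 at T20. The foxj1b locus (XLOC_021358, named after its values were seen) was not called (adjusted p = 0.0753) but had 56.2, 277 and 333 at T18 and 43.3 and 1.86 at T20, and it was called, as lower, without T18 replicate 1 (0.00883). Of the dynein heavy chains, DNAH3 (XLOC_012934) and DNAH5/Dnah8 (XLOC_006864) had 16.2, 28.9 and 16.2 at T18 and 74.7 and 115 at T20 and 109.9, 80.9 and 91.4 at T18 and 330.3 and 344 at T20. Both odf3 loci, of the sperm tail, fell. odf3 (XLOC_003252) had 197, 513 and 591 at T18 and 50.8 and 0 at T20 and lost its call without T18 replicate 2 (0.0558), T18 replicate 3 (0.0561) or T20 replicate 2 (0.0551), and ODF3 (XLOC_044805) had 46.2, 92.5 and 92.7 at T18 and 19.4 and 13 at T20. The other fall, Ccdc151 (XLOC_046395, named after its values were seen), had 40.0, 28.9 and 51.9 at T18 and 8.97 and 0 at T20 and lost its call without T18 replicate 3 or T20 replicate 2 (0.0867 and 0.0749). The count of falls was 5 without T18 replicate 1, 1 without T18 replicate 3 and 5 without T20 replicate 1.

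Called loci with the most unlike T20 libraries, among those with at least 100 normalised counts in one of them, were Sox9 (XLOC_013714) and Krt8 (XLOC_005424), given above, and 3 more. Casp6 (XLOC_009153), a caspase, had 2.50, 4.13 and 5.41 at T18 and 26.9 and 192 at T20. TBK1 (XLOC_050647), a kinase of innate immune signalling, had 21.2, 40.5 and 44.9 at T18 and 56.8 and 439 at T20, and Ceacam1 (XLOC_030424), an adhesion molecule of epithelia, had 17.5, 7.43 and 18.4 at T18 and 28.4 and 218 at T20. T20 replicate 2 was the higher in all 5. TBK1 and Ceacam1 lost their calls without T20 replicate 2 (adjusted p = 0.354 and 0.5) and without any T18 library (0.0831 to 0.0947 and 0.0845 to 0.11). Among loci with a mean of at least 50 that rose, T20 replicate 2 was more than 2-fold above replicate 1 at 132 and more than 2-fold below it at 39. Among those that fell these counts were 35 and 92, and among loci not called they were 341 and 766. Among loci named by the rule, leaving out a T21 library, which changes the estimate of the spread, ended the calls of SEC61G, MSX2 (XLOC_020593), SURF4, snai1 and jag1b for each of the 3 T21 libraries and those of CTNNB1, ptc, Sc5d, Pou4f1/zic1 (XLOC_044134) and TBK1 for 1 or 2 of them, with adjusted p from 0.0509 to 0.0771.

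**Figure D5:**
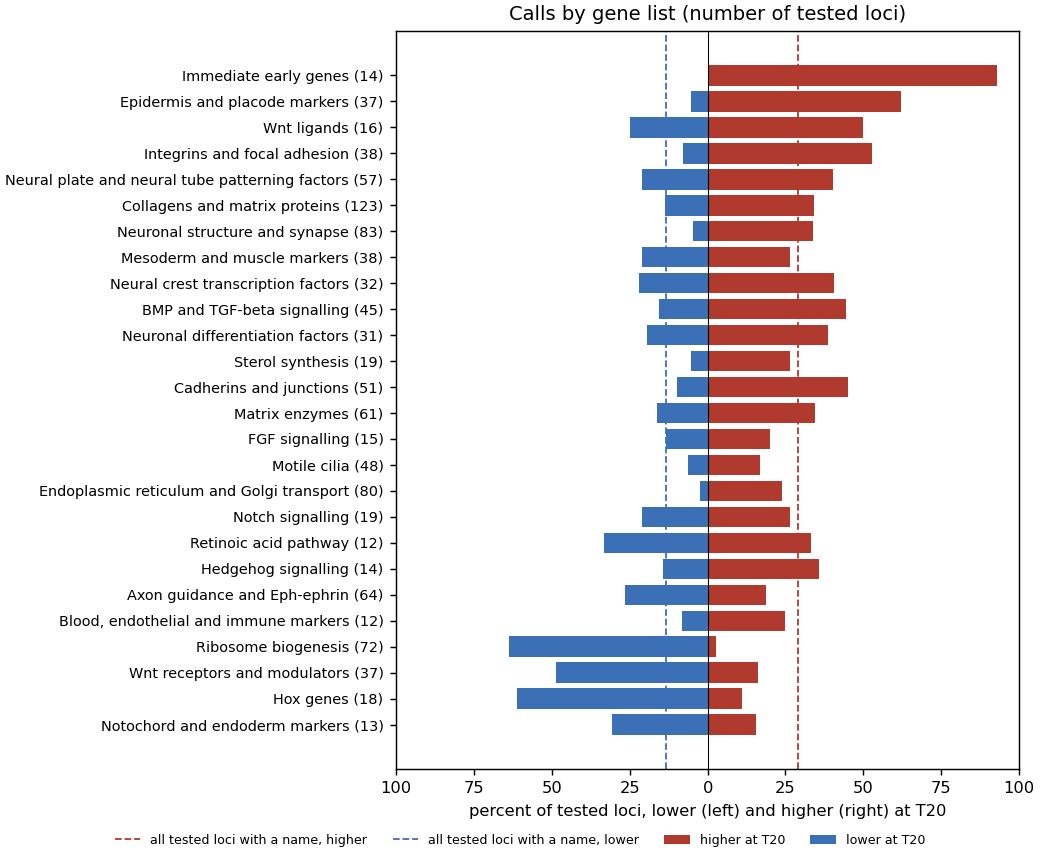
Percent of the tested loci of each gene list that rose (red, to the right) or fell (blue, to the left) at T20, ordered by median log2 fold change, with the number of tested loci in brackets. Dashed lines are the shares over all tested loci with a name, 29.1% higher and 13.3% lower. Ribosome biogenesis and Hox genes reach furthest to the left, with 46 of 72 and 11 of 18 loci lower.

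Calls were spread unevenly over kinds of locus. Of 17630 tested spliced loci with a strand 21.8% were called, against 6.61% of 1785 loci of 1 exon with a strand and 7.32% of 5902 without a strand. These classes also differed in depth, with median levels of 259, 22.4 and 18.1 normalised counts. Loci without a name had 1367 rises and 1022 falls. Of the spliced loci with a strand, 69.9% of those that rose had an open chromatin (ATAC-seq) peak within 1000 bases of their start, against 73.8% of those that fell and 73.0% of those not called. With 500 bases these shares were 59.9%, 62.5% and 62.5%. The peaks were pooled over T20, T21 and T23 and have no T18 counterpart, so they say nothing of a difference between the stages.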

How the data were processed

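RNA-seq libraries of polyA RNA were made by the authors with a directional kit and sequenced in pairs, mapped with STAR 2.4.2 to the sea lamprey germline assembly, assembled into loci with Cufflinks and counted with featureCounts 1.4.6-p4, multi-mapping reads included. The deposited counts are whole fragments per locus, and the deposited normalised values (a signal) are those counts divided by size factors of DESeq2 1.8.2. The header of the count table had 1 field more than its rows, so each column was taken from its place in the row and compared with the normalised values. Gene names came from the study's own lists of changed or clustered loci, held here only in part, and cover 5028 loci, so named loci are biased towards called ones. The deposited open chromatin peaks were pooled over stages, and only their positions were used.

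Counts of the 8 DNT libraries were filtered and TMM-normalised, and T20 was compared with T18 by edgeR 4.0.16 (quasi-likelihood test, R 4.3.3). The test was tried on simulated data. These were drawn with the same rule of spread for every stage, so the trial did not cover the wider difference between the T20 libraries. Members and gene lists were chosen with earlier results of these data known. Loci named are the 8 largest rises and falls among named loci with adjusted p under 0.05, libraries that do not overlap and a mean of at least 50 normalised counts, the 3 largest each way in each list, the 5 called loci with the most unlike T20 libraries (at least 100 in one), 2 rises and 2 falls without a name, and all NC factors and Wnt ligands. Some loci that this rule takes are not reported here. Depth was 13690592 to 91015285 fragments per T18 or T20 library, and the count floor was 3 per library. Alternatives were DESeq2 1.42.0, other normalisations, filters and thresholds, the fit without T21, a replicate block and leaving out each library. Summaries and plots used Python 3.11.15, numpy 2.4.6, pandas 2.3.3 and matplotlib 3.10.9.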

Additional observations from a re-analysis of the deposited data

How the results depend on the processing

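The 4391 calls (2742 higher, 1649 lower) were 2821 (1796 and 1025) with the T18 and T20 libraries fitted alone, 2452 (1672 and 780) at an adjusted p under 0.01 and 2458 (1713 and 745) with an absolute log2 fold change over 1. Upper quartile normalisation gave 4850 calls, of which 2571 were lower. DESeq2 called 5000 (3060 and 1940), relative log expression normalisation 4356, no filter on low counts 5121 and a minimum of 10 counts in 3 libraries 4305. Leaving out 1 library gave 2969 to 6340 calls, 1872 to 3315 higher and 1097 to 3025 lower, where the lowest count of falls came without T18 replicate 2 and the highest without T20 replicate 1, which leaves T20 with 1 library assumed to vary like the others. No named locus that was followed reversed in any of these. SFRP5, wif1, LMCD1/Prickle3 and MMP21 (XLOC_013872) were among those not followed. Same-numbered T18 and T20 libraries had correlations of -0.0461 and 0.0072 between their deviations from the group means. These cannot tell whether replicate numbers pair the samples, because the deviations of 2 T20 libraries mirror each other. With T21, same-numbered libraries had correlations of -0.0303 to 0.1523 and differently numbered ones -0.1511 to 0.1511. With the replicate block 3541 loci were called (2242 and 1299). The causes of these differences were not tested. With 13690592 and 15677501 fragments, the T20 libraries set the limit for low loci.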
